A study of Mus musculus with 3 samples.

Results

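The 10 genes described here, Pdgfra, Dpt, Gsn, Mgp, Apod, Apoe, Lpl, Pparg, Fabp4 and Cd36, are markers of fibro-adipogenic progenitors (FAP) and of adipocytes. They were taken as a named list, and all 10 were found among the 18193 genes that have at least 1 probe set of their own in the platform annotation. RNA was hybridized to 3 Affymetrix MOE_430_2 arrays, with 1 array for each condition. The cells were muscle stem cells (MuSC, satellite cells) of wildtype C57BL/6 mice aged 8 weeks, purified by FACS as CD34+ α7 integrin+ cells that lacked CD45, CD11b, CD31 and Sca1. Fresh MuSC were not cultured, and their label also holds the word vehicle, which the sources used here do not explain. MuSC −OSM were kept for 3 days in 10% FBS, and MuSC +OSM for 3 days in 10% FBS with 100 ng/mL Oncostatin M (OSM), a cytokine of the interleukin-6 family. The sources used here do not say how many mice were pooled for an array. With 1 array per condition no test was possible, and every ratio below is a difference between 2 arrays without a replicate check. A legend of the study describes its OSM data as a mean over biological replicates, and the sources used here do not say whether a deposited column is such a mean.

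FAP are mesenchymal cells that lie between muscle fibers. They make collagens and other matrix, carry the receptor PDGFRα and the surface protein Sca1, and can turn into adipocytes when PPARγ, the nuclear receptor that drives fat cell formation, becomes active. PPARγ pairs with an RXR receptor and switches on genes of fatty acid uptake and storage, among them Fabp4, Cd36 and Lpl. None of the listed genes belongs to FAP or adipocytes alone. Fabp4 and Cd36 are also made by capillary endothelium, Apoe by macrophages and glia, Apod by Schwann cells, and Lpl by muscle fibers. Cells that display Sca1, FAP among them, were gated out of the sort. In bulk RNA, fewer cells of a type and less RNA per cell cannot be told apart.

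Signals are MAS5 values on a linear scale. Ratios were taken after any signal below 40, the median over the 3 arrays together, was raised to that floor. "At least" before a fold means that the lower of its signals lay below the floor, and a gene counts as measured in a comparison where 1 of its arrays lay above it. The median signal over all probe sets was 53 in fresh cells, 36 without OSM and 32 with OSM. For the β-actin controls, the 3′ probe set over the 5′ probe set gave 2.35 in fresh cells, 1.40 without OSM and 1.41 with OSM, so the fresh array stood apart in this sign of RNA integrity. For Gapdh the same quotient was 1.36, 1.14 and 0.905, with the cultures about as far apart as fresh and −OSM cells. The part of RNA integrity in the differences was not tested.

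Most of the 10 genes were high in fresh MuSC and low in culture, and OSM left most of them low. Of the 10 genes, 9 were at least 2-fold higher in fresh cells than without OSM, against 20.4% of all genes measured, and 1, Pparg, was at least 2-fold lower, against 15.0%. Of the 8 that could be measured between the cultures, 1, Mgp, was at least 2-fold higher with OSM than without (6.07% of all genes), 1, Pparg, was lower (4.39%) and 6 did not pass 2-fold. Of these 6, Pdgfra and Apoe had bounds only, because they were under the floor without OSM. In MuSC +OSM, 8 of 9 measured genes were at least 2-fold lower than in fresh MuSC (17.2% of all genes) and 0 were higher (13.8%). The comparisons share arrays, so they are not independent of each other. Counts of the other gene lists below are to be read beside these same shares of all genes. The median log2 ratio of the measured genes was 3.10 in fresh over −OSM cells (0.14 over all genes), 0.35 in +OSM over −OSM cells (-0.01 over all genes) and -2.49 in MuSC +OSM over fresh MuSC (-0.14 over all genes).

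These counts depend in part on where a gene passed the floor. Dpt, Gsn, Mgp, Apod and Lpl were above it on all 3 arrays, and these 5 carry the measured ratios. Pdgfra and Apoe were above it on 2 arrays, fresh MuSC and MuSC +OSM. Pparg, Fabp4 and Cd36 were above it on 1 array only, so all their ratios are bounds. After the floor, 7 of the 10 genes ran in the order fresh MuSC, MuSC +OSM, MuSC −OSM from high to low, an order held by 21.3% of the 12888 genes above the floor on any array. For Pdgfra and Apoe the last place of MuSC −OSM followed from the floor, because only that array lay under it. For 3 genes the lower signals were tied at the floor.

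**Figure D1:**
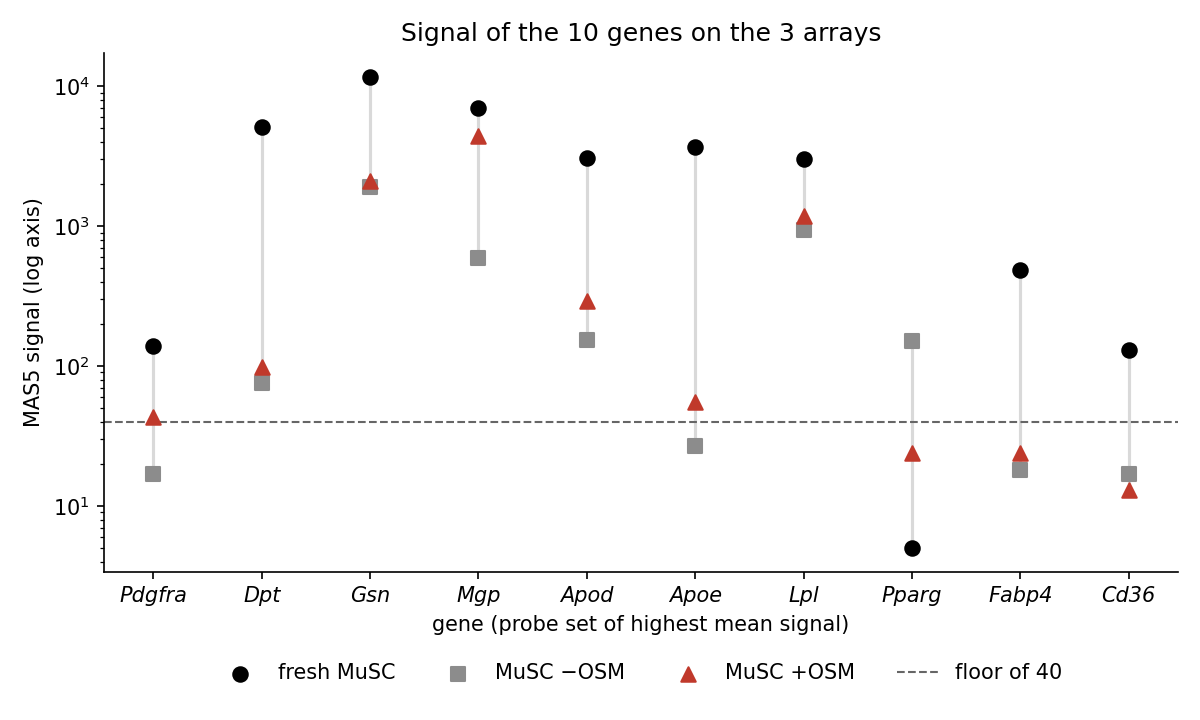
MAS5 signal of the 10 genes on a log axis for fresh MuSC (black circles), cells cultured without OSM (gray squares) and cells cultured with OSM (red triangles), each from 1 array, with a dashed line at the floor of 40. Mgp is the gene whose red triangle lies near the black circle, at 4419 against 7021, and Pparg is the one gene whose gray square lies above its other points, at 150.

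**Figure D2:**
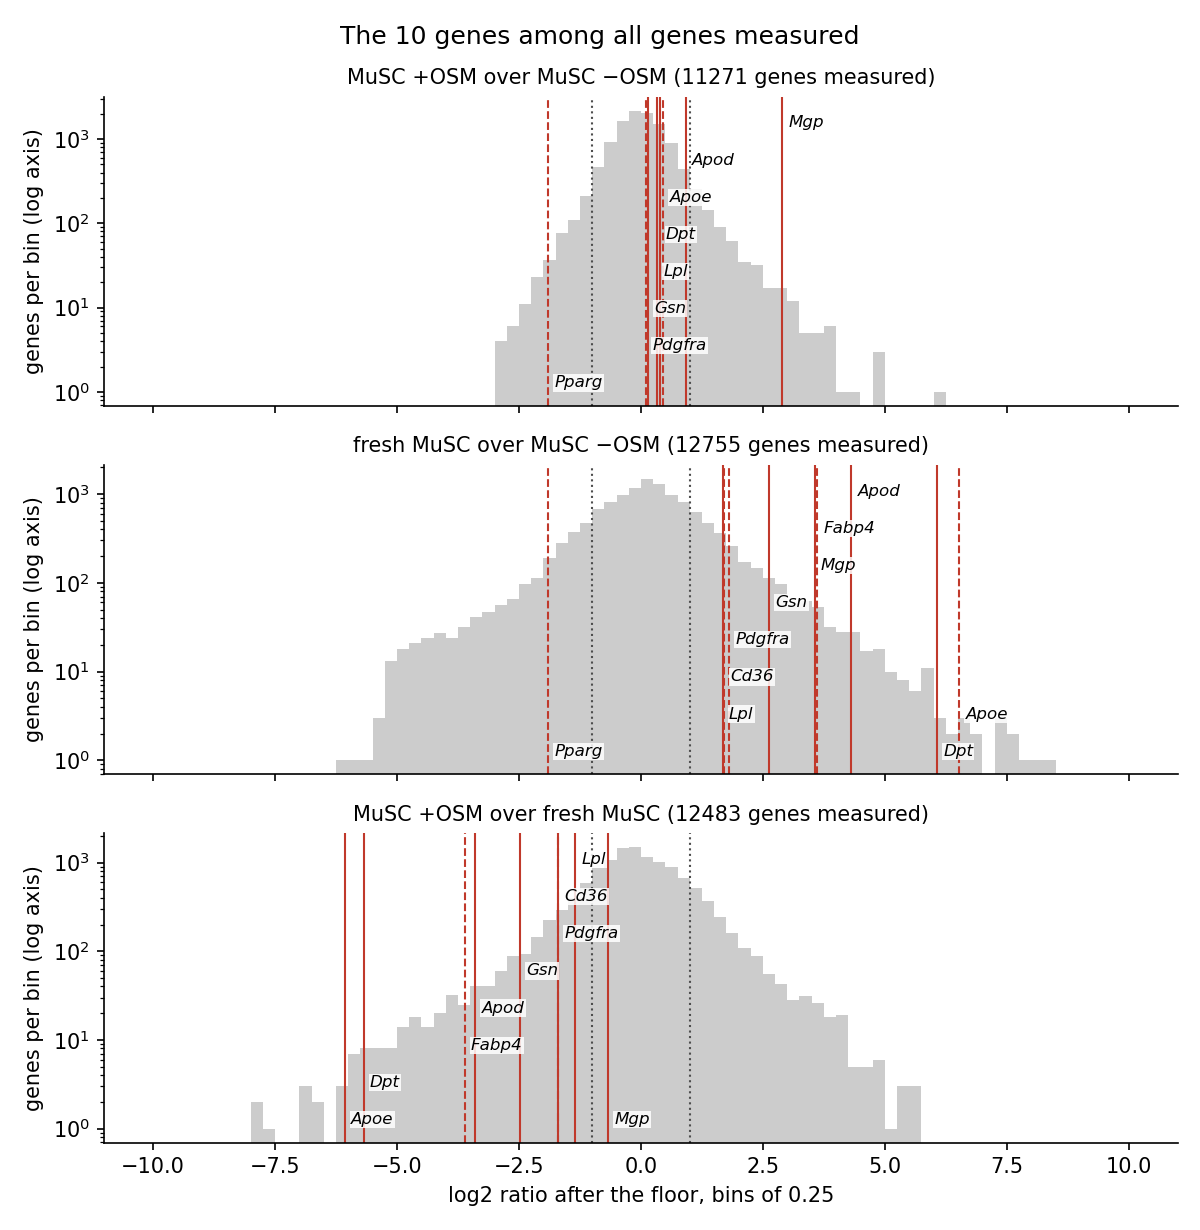
Number of genes per bin of the log2 ratio after the floor (gray bars, log axis) in the 3 comparisons, with the measured genes of the list as red lines, dashed where a signal under the floor makes the ratio a bound, and dotted lines at 2-fold. In the middle panel 9 of the 10 lines lie right of the 2-fold line, whereas in the top panel Mgp lies at 2.90, Pparg at -1.91 and the other 6 between 0.10 and 0.92.

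Pdgfra, which encodes the receptor that defines FAP, stood above the floor in fresh MuSC and barely so with OSM. The signal of Pdgfra was 140 in fresh cells, 17 without OSM and 43 with OSM. Fresh MuSC were thus at least 3.50-fold higher than MuSC −OSM, and 3.26-fold higher than MuSC +OSM, whose signal stood just above the floor. The other 2 probe sets of Pdgfra were under the floor on all 3 arrays, with signals of at most 38, so the difference rests on 1 probe set.

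Other genes of the PDGF system were read beside it. Of 6 PDGF ligands and receptors besides Pdgfra, 4 were at least 2-fold higher in fresh cells than without OSM and 1 was lower, and 2 of 5 were at least 2-fold higher and 0 lower with OSM than without. The count of 2 became 1 after quantile normalization, with 1 gene then lower, 1 over the mean of all probe sets and 0 of 4 with the probe set of second highest mean signal. Pdgfrb, the β receptor of mural cells and fibroblasts, had signals of 661 in fresh cells, 139 without OSM and 738 with OSM. On the deposited scale it was therefore close to its fresh signal with OSM, 5.31-fold above MuSC −OSM, while Pdgfra stayed near the floor. The ligand gene Pdgfa had signals of 745, 282 and 594 in this order, 2.11-fold higher with OSM than without, but within 2-fold after quantile normalization. Pdgfc, another ligand gene, ran otherwise, with 121 in fresh cells, 385 without OSM and 727 with OSM. Pdgfrl, a receptor-like gene, had 951, 93 and 104, so that it was 10.2-fold higher in fresh cells than without OSM and within 2-fold between the cultures.

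Dpt encodes dermatopontin, a small matrix protein that binds decorin and promotes collagen fibril assembly. The signal of Dpt was 5094 in fresh cells, 76 without OSM and 99 with OSM. Fresh MuSC stood 67.0-fold above MuSC −OSM and 51.5-fold above MuSC +OSM, and the cultures differed by 1.30-fold. Among the 9927 genes above the floor on both arrays, Dpt had the ratio of rank 9 from the top in fresh over −OSM cells. Dpt has 1 probe set, so no other reading of it was possible.

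Promoters were searched for the letters bound by STAT factors, through which OSM receptors signal, and by PPARγ with RXR, because these factors bear on the OSM comparison and on the lipid genes. RefSeq promoters of build GRCm38.p6 were given for 7 of the 10 genes, Mgp, Lpl and Fabp4 being the others, and the 250 bases before each start were read. The STAT letters TTCNNNGAA, which read the same on both strands, were found before the start of Dpt alone among these 7, and in 7.02% of all 32851 promoters. The stretch of Dpt at chr1:164796495-164796583 on the plus strand is shown with the match in capitals, 128 to 120 bases before the start.
Dpt: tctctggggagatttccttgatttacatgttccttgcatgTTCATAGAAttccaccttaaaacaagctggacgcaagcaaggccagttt
The match is a description of the letters. The signal of Dpt differed by 1.30-fold between the cultures.

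Gsn encodes gelsolin, a calcium-regulated protein that cuts and caps actin filaments and also exists as a secreted plasma form. The signal of Gsn was 11696 in fresh cells, 1890 without OSM and 2086 with OSM. The fresh array was 6.19-fold above MuSC −OSM, and the cultures differed by 1.10-fold. Gsn has 6 probe sets, and 4 of them were bright, with fresh MuSC above both cultures on each. The probe set of the fourth highest mean signal read 5200, 1163 and 2546, which puts MuSC +OSM 2.19-fold above MuSC −OSM, whereas those ranked above it gave 1.46-fold and 1.30-fold. A dim probe set with signals of 30, 69 and 56 ran the other way, and the last was under the floor on all arrays. The size of the difference between the cultures thus varied with the probe set.

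The related proteins of the gelsolin family differed among themselves. Of 5 measured genes of the gelsolin family besides Gsn, 1 was at least 2-fold higher in fresh cells than without OSM and 2 were lower, and 0 of 5 passed 2-fold between the cultures. Svil, the supervillin gene, had signals of 377 in fresh cells, 1755 without OSM and 931 with OSM. Flii, the flightless I gene, had 478, 1259 and 1211. Both were therefore lower in fresh MuSC, by 4.66-fold and 2.63-fold. Vill, a villin-like gene, was 2.15-fold higher in fresh cells, with 101, 47 and 29, and Capg, a filament-capping gene, had the order of Gsn at 644, 441 and 513.

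Mgp encodes matrix Gla protein, a secreted inhibitor of calcification that binds BMPs and needs vitamin K-dependent carboxylation to work. The signal of Mgp was 7021 in fresh cells, 594 without OSM and 4419 with OSM. It was the one gene of the list at least 2-fold higher with OSM, 7.44-fold above MuSC −OSM, and the one measured gene that stayed within 2-fold of its fresh signal with OSM, 1.59-fold below. After the arrays were scaled to a common median it was level with fresh MuSC (log2 ratio 0.06), and Lpl and Pdgfra were then also within 2-fold of their fresh signals. On the deposited scale and with OSM its signal was 62.9% of that in fresh MuSC, against 8.46% without OSM. Among the 9800 genes above the floor in both cultures, Mgp had the ratio of rank 26 from the top. Like Dpt it has 1 probe set, so this difference rests on 1 probe set of 2 arrays.

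Genes around the carboxylation of Mgp were read as a list of their own. Of 6 measured genes, 1 was at least 2-fold higher with OSM than without and 0 were lower, and 2 were higher and 2 lower in fresh cells than without OSM. Pros1, which encodes protein S, another carboxylated secreted protein, had signals of 836 in fresh cells, 116 without OSM and 1025 with OSM, 8.84-fold higher with OSM. Gas6, a carboxylated ligand of TAM receptors, had 2462, 530 and 869, 1.64-fold higher with OSM. Both stood higher in fresh cells than without OSM, Gas6 by 4.65-fold and Pros1 by 7.21-fold. Vkorc1l1, a vitamin K reductase gene, had 111, 423 and 454, and Nqo1, a quinone reductase gene, had 40, 242 and 421, both lower in fresh MuSC.

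Most other FAP and fibroblast markers were higher in fresh MuSC as well. Of 21 measured markers, 15 were at least 2-fold higher in fresh cells than without OSM and 1 was lower. With OSM, 8 of 18 were at least 2-fold above the culture without it and 0 at least 2-fold below, and with the probe set of second highest mean signal 2 of 8 were above. The summed signal of the 23 markers was 54636 in fresh cells, 10566 without OSM and 20992 with OSM. Serpinf1, the 1 marker at least 2-fold lower in fresh cells, had 2453, 5301 and 6883, a large part of the sums in culture. Dcn, which encodes decorin, the proteoglycan that dermatopontin binds, had signals of 12179, 32 and 373. The collagen genes Col1a1, with 1037, 53 and 164, and Col3a1, with 13247, 2249 and 7683, were 3.09-fold and 3.42-fold higher with OSM. Cd34, a surface protein of the sort gate that FAP and satellite cells both carry, had 2222, 34 and 15. Thy1, a surface glycoprotein of fibroblasts, had 342 in fresh cells, 64 without OSM and 291 with OSM, 4.55-fold higher with OSM. Thy1 thus resembled Mgp in standing near its fresh level with OSM on the deposited scale. Cxcl14, a chemokine gene, was above the floor in MuSC +OSM only, at 146 against 31 in fresh MuSC and 1 in MuSC −OSM. Smoc2, a matrix protein gene, resembled Dpt, with 863 in fresh cells, 29 without OSM and 54 with OSM. Ly6a, which encodes Sca1, has no probe set of its own in the annotation and was not analysed here.

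Apod encodes apolipoprotein D, a small lipid carrier of the lipocalin family. The signal of Apod was 3066 in fresh cells, 154 without OSM and 291 with OSM. Fresh MuSC were 19.9-fold above MuSC −OSM and 10.5-fold above MuSC +OSM, and OSM cells stood 1.89-fold above cells without OSM, short of 2-fold. The other probe set of Apod read 372, 2 and 43, again with fresh MuSC highest and with MuSC +OSM just above the floor.

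Apoe encodes apolipoprotein E, a ligand of LDL family receptors that carries cholesterol out of macrophages and glia. The signal of Apoe was 3689 in fresh cells, 27 without OSM and 55 with OSM. Its ratio of at least 92.2-fold in fresh over −OSM cells was the highest on the list, and MuSC +OSM were 67.1-fold below fresh MuSC. Both cultures lay close to the floor, so the difference between them, at least 1.38-fold, is only a bound. Apoe and Dpt shared this course, with fresh signals of 3689 and 5094 and culture signals under 100.

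Other apolipoproteins were mostly under the floor. Of 11 listed apolipoprotein genes besides Apod and Apoe, 8 were at or under the floor on all 3 arrays. For comparison, 12888 of all 18193 genes were above it on at least 1 array. Clu, which encodes clusterin or apolipoprotein J, had signals of 533 in fresh cells, 24 without OSM and 258 with OSM, at least 13.3-fold higher in fresh MuSC and at least 6.45-fold higher with OSM than in MuSC −OSM. Among 11 lipoprotein receptors and genes of the LXR pathway, the sterol-sensing pathway that induces Apoe, 4 were at least 2-fold higher in fresh cells than without OSM and 0 were lower, and 1 of 8 was higher with OSM. Abca1, the cholesterol exporter that loads apolipoproteins, had 707 in fresh cells, 58 without OSM and 121 with OSM. Its order was that of Apoe and Apod, with ratios to MuSC −OSM of 12.2-fold in fresh MuSC and 2.09-fold with OSM. After quantile normalization Abca1 was within 2-fold between the cultures, and 0 of 9 genes of this list were then higher with OSM. After median scaling 2 of 9 were. Sorl1, a sorting receptor gene, passed the floor on the fresh array alone, at 404, as did the cholesterol exporter gene Abcg1, at 90. Lrp1, a receptor that takes up Apoe-bearing particles, had 593, 287 and 388.

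Lpl encodes lipoprotein lipase, which releases fatty acids from circulating triglyceride at the vessel wall. The signal of Lpl was 2996 in fresh cells, 939 without OSM and 1177 with OSM. On the main probe sets and without OSM, Lpl kept 31.3% of its fresh signal, the most among the genes higher in fresh MuSC. Its ratio of 3.19-fold was the smallest on the list among genes measured on both sides. With OSM the signal of Lpl was 39.3% of that in fresh MuSC, against 62.9% for Mgp, and stood 1.25-fold above MuSC −OSM. The other probe set of Lpl read 849, 154 and 283, a ratio of 5.51-fold in fresh over −OSM cells and 1.84-fold with OSM.

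No measured partner of lipoprotein lipase passed 2-fold between fresh and −OSM cells on the deposited scale. Of 6 measured partners, 0 were at least 2-fold higher and 0 lower in fresh cells than without OSM. Gpihbp1, at 67 in fresh cells and 24 without OSM, had only a bound of at least 1.675-fold. With quantile normalization, the mean of all probe sets or the probe set of second highest mean signal, 1 partner was higher and 0 lower. With the floor at 20, 1 was higher and 1 lower. With OSM, 1 of 5, Lmf1, was higher. Lmf1, the factor that matures the lipase in the endoplasmic reticulum, had signals of 42 in fresh cells, 38 without OSM and 96 with OSM, close to the floor in fresh and −OSM cells. Vldlr, a receptor that helps the lipase deliver fatty acids, had the order of Lpl, at 2193, 1116 and 1652.

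Pparg ran opposite to the rest of the list in fresh over −OSM cells. The signal of Pparg was 5 in fresh cells, 150 without OSM and 24 with OSM. It was above the floor in MuSC −OSM alone, at least 3.75-fold above both other arrays, whose order is not known because both lay under the floor. The gene has 1 probe set of its own, and 150 is a modest signal, so this reading has no second check on the arrays.

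The AGGTCA core, the element that PPARγ and RXR bind as a direct repeat with 1 base between the copies, was found before 2 of the 3 RefSeq starts of Pparg and before the start of Cd36, on either strand. It stood in 14.0% of all promoters, and the full direct repeat in 11 of 32851 and in none of those of the list. The stretches are shown with the core in capitals, at chr6:115361076-115361143 and chr6:115362300-115362348 on the plus strand for Pparg and at chr5:17836079-17836146 on the minus strand for Cd36, where it reads on the opposite strand. It lies 28 to 23 and 9 to 4 bases before the 2 Pparg starts and 228 to 223 bases before that of Cd36.
Pparg start 1: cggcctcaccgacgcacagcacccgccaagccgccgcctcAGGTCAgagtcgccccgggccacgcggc
Pparg start 2: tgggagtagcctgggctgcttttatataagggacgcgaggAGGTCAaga
Cd36: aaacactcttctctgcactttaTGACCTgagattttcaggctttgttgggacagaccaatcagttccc
These letters describe the promoters only. Pparg and Cd36 had opposite signals on the arrays, the former highest in MuSC −OSM and the latter in fresh MuSC.

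Partners and cofactors of PPARγ went both ways between the cultures. Of 9 measured PPAR and RXR receptors and cofactors, 0 were at least 2-fold higher and 1 was lower with OSM than without. That gene was Rxrg, the RXR form of muscle, with signals of 83 in fresh cells, 203 without OSM and 75 with OSM. Rxrg thus had the course of Pparg, 2.71-fold lower with OSM and 2.45-fold lower in fresh cells than without OSM. Rxrb, the broadly expressed form, ran the other way, with 504, 165 and 295. Ppard, the PPAR of broad expression, had 102, 6 and 55. The coactivator gene Ppargc1a had 98, 76 and 32, at least 1.90-fold lower with OSM, and its relative Ppargc1b had 274, 617 and 462. In fresh over −OSM cells, 3 of 10 genes of this list were higher and 2 were lower, against 20.4% and 15.0% of all genes. Between the cultures the shares of all genes were 6.07% higher and 4.39% lower with OSM.

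Fabp4, the fatty acid-binding protein of adipocytes and capillary endothelium, was seen in fresh MuSC only. The signal of Fabp4 was 489 in fresh cells, 18 without OSM and 24 with OSM, at least 12.2-fold above either culture in fresh cells. A further probe set read 160, 11 and 16, again above the floor in fresh MuSC only, and the remaining 2 were under the floor on all arrays. Fabp4 was therefore under the floor on the array where Pparg was above it.

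Cd36 encodes a scavenger receptor that takes up fatty acids and oxidized lipoproteins. The signal of Cd36 was 130 in fresh cells, 17 without OSM and 13 with OSM, at least 3.25-fold above either culture in fresh cells. A further probe set read 92, 4 and 1, at least 2.30-fold, and the third stayed under the floor. No comparison between the cultures was possible for Fabp4 or Cd36.

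Relatives and targets in fatty acid use went in both directions. Of 13 measured PPAR target genes outside the list, 3 were at least 2-fold higher and 4 lower in fresh cells than without OSM. With OSM, 2 were higher and 1 was lower. The shares of all genes were 20.4% higher and 15.0% lower in fresh cells, and 6.07% and 4.39% with OSM. Fabp3, the fatty acid-binding protein of muscle, had signals of 133 in fresh cells, 1744 without OSM and 356 with OSM, 4.90-fold lower with OSM and 13.1-fold lower in fresh MuSC. Fabp3 thus ran opposite to Fabp4 between fresh and cultured cells. Fabp5, the epidermal form, had 352, 1450 and 1721, within 2-fold between the cultures. Cpt1a, which admits fatty acids to mitochondria, had 853 in fresh cells, 210 without OSM and 843 with OSM. On the deposited scale Cpt1a thus stood with OSM at its fresh level. Acadl, an enzyme of fatty acid oxidation, had 692, 6214 and 5113, 8.98-fold lower in fresh cells. Pdk4, a kinase that spares glucose, had 2833, 623 and 819, a course like that of Lpl. Plin2, a lipid droplet coat gene, was 2.07-fold higher with OSM, at 694 against 335, and 279 in fresh MuSC. Its difference between the cultures was within 2-fold after quantile normalization.

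Adipocyte genes outside the list were read as a check on its label. Adipoq, which encodes the hormone adiponectin, was under the floor on all 3 arrays, at 38 in fresh cells, 8 without OSM and 15 with OSM. Of 22 adipocyte genes with a probe set, 6 were at or under the floor on all arrays. The other 16 lay near the share of all genes above it on any array, 12888 of 18193. The summed signal was 6079 in fresh cells, 2371 without OSM and 2612 with OSM. Of 16 measured, 5 were at least 2-fold higher in fresh cells than without OSM and 0 were lower, and with OSM 2 of 14 were higher and 0 lower. Scd1, a desaturase of lipid synthesis made by many cells, had 3137, 969 and 837, and Fasn, the fatty acid synthase gene, had 811, 332 and 270. Ebf1, a transcription factor of adipocyte and B cell precursors, was above the floor in fresh cells alone, at 186. Mgll, which cleaves monoglycerides, had 626, 91 and 228, 2.51-fold higher with OSM. Cebpa, the transcription factor that acts with PPARγ in fat cells, had 91 in fresh cells, 10 without OSM and 204 with OSM, at least 5.10-fold higher with OSM. Cebpa was therefore above the floor on the 2 arrays where Pparg was under it. Plin1, the coat protein gene of adipocyte lipid droplets, has no probe set of its own and was not analysed here, while the adipocyte hormone genes Lep, at 2, 2 and 1, and Retn, at 12, 7 and 6, and the lipid droplet gene Cidec, at 22, 2 and 0, were under the floor. Plin4, another lipid droplet coat gene, was just above it on all arrays, at 54, 55 and 63.

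Further probe sets of the listed genes were read as a check. The 10 genes have 24 probe sets, and 14 of these are further ones in 6 genes, of which 8 were above the floor on at least 1 array. In fresh over −OSM cells, 7 of these 8 went the same way as the main probe set and all of the 7 passed 2-fold. Of these, the probe sets of Apod, Fabp4 and Cd36 passed the floor in this comparison through the fresh array alone. Their direction was therefore fixed and is no check. In +OSM over −OSM cells, 5 of 6 went the same way and 1 passed 2-fold. The exception in each comparison was the dim Gsn probe set. Between the cultures the Apod probe set passed the floor through MuSC +OSM alone, so its direction is no check there either. Dpt, Mgp, Apoe and Pparg have no further probe set, and these include the gene with the highest ratio and both genes past 2-fold between the cultures.

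**Figure D3:**
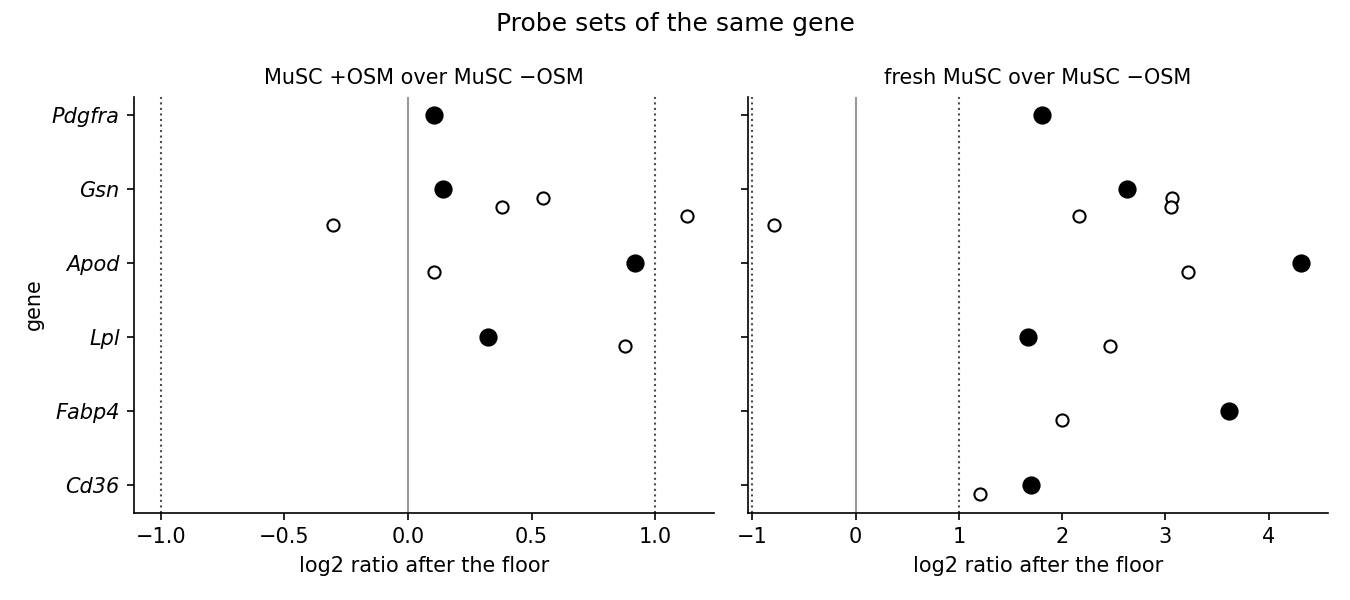
log2 ratio after the floor of every probe set above the floor on at least 1 array, for the 6 genes that have several, with the probe set of highest mean signal as filled circles, further ones as open circles and dotted lines at 2-fold. In the right panel the circles lie between 1.20 and 4.32 apart from 1 Gsn probe set at -0.79, and in the left panel 1 Gsn probe set reaches 1.13.

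Markers of cells other than FAP were set beside the list, since the listed genes are shared with them. Satellite cell markers were higher in fresh cells than without OSM in 7 of 12 and lower in 3, with a summed signal of 39561 in fresh cells, 15305 without OSM and 18585 with OSM. Pax7, the transcription factor that defines satellite cells, had 4006, 282 and 431, so this marker was plain on the fresh array and lower in both cultures. The 3 markers lower in fresh cells were Itga7, Myod1 and Des. Itga7, the gene of the α7 integrin of the sort gate, had 499, 1808 and 1238. Myod1 had 936, 3820 and 4148, and Des had 744, 6183 and 7248. Myf5, a myogenic factor of satellite cells, had 7016, 561 and 1855, Calcr, their calcitonin receptor gene, had 2562, 35 and 6, and Chrdl2 had 3709, 58 and 97. For Schwann cell markers 7 of 8 were higher and 0 lower, with a summed signal of 14229, 832 and 1332 in this order, and with Pmp22, a myelin gene that other cells also make, at 8162, 256 and 250. Mbp, the myelin basic protein gene, had 3747 in fresh cells, 66 without OSM and 98 with OSM, the same course as Apoe, Apod and Dpt. Sox10, which defines Schwann cells, had 221, 11 and 63. The glial genes S100b and Cdh19 had 319, 27 and 50, and 686, 43 and 145. Schwann cell markers thus moved with the listed genes in the comparison of fresh with cultured cells, and their part in it was not tested.

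Tenocyte, mural and endothelial markers in part were also higher in fresh MuSC. For tenocyte markers 6 of 8 were higher and 1 lower, with a summed signal of 12838 in fresh cells, 947 without OSM and 2217 with OSM, and Tnmd, the tenomodulin gene that defines them, had 2062, 33 and 10. Thbs4, Fmod and Kera, matrix genes of tendon, were likewise highest in fresh cells, at 4702, 4308 and 1078, against at most 36, 482 and 3 in culture. Scx, the tendon transcription factor, ran the other way, with 48 in fresh cells, 327 without OSM and 104 with OSM, and Tnc, the tenascin C gene, had 229, 398 and 1500. Of 9 pericyte and smooth muscle markers, 5 were higher and 2 lower, with a summed signal of 14343, 22331 and 16358, and the pericyte gene Rgs5 had 1687, 35 and 59. In the cultures the summed signal was mostly that of Acta2, the smooth muscle actin gene, at 6543, 19053 and 13114, which with Abcc9, at 314, 816 and 963, made up the 2 lower genes. Notch3, with 2947, 319 and 263, Myh11, with 301, 2 and 1, and Kcnj8, with 203, 23 and 83, were highest in fresh cells. Of 7 endothelial markers, 3 were higher and 0 lower, with a summed signal of 1633, 395 and 357. Cdh5, an endothelial cadherin gene, had 268 in fresh cells, 6 without OSM and 22 with OSM, and Pecam1, which encodes the CD31 of the sort gate, had 4, 4 and 2. Tek, the angiopoietin receptor gene, had 791, 42 and 25, and Esam, an adhesion molecule gene, had 97, 39 and 28. Endothelial markers above the floor numbered 7 of 12 in fresh cells, 3 without OSM and 2 with OSM. Over all probe sets, 56.8%, 47.3% and 45.9% were above it in this order, so the fresh count lay near the share of its array. The part of endothelial cells in the Fabp4 and Cd36 signals was not tested.

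Of 12 leukocyte markers, 7 were above the floor in fresh or −OSM cells. Of these, 1 was higher and 1 lower in fresh cells than without OSM, with a summed signal of 1615 in fresh cells, 455 without OSM and 385 with OSM. Ptprc, which encodes CD45, had 1, 2 and 7, and the macrophage gene Adgre1 had 40, 83 and 41. Lyz2, the lysozyme gene of myeloid cells, was the exception, with 1204 in fresh MuSC and 13 in each culture. Csf1r, the macrophage growth factor receptor gene, had 58, 62 and 149, Laptm5 had 118, 85 and 61, and Cd68 had 49, 28 and 17, so these 3 were above the floor in fresh cells while Ptprc and Adgre1 were not. The part of leukocytes in the Apoe signal was not tested.

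**Figure D4:**
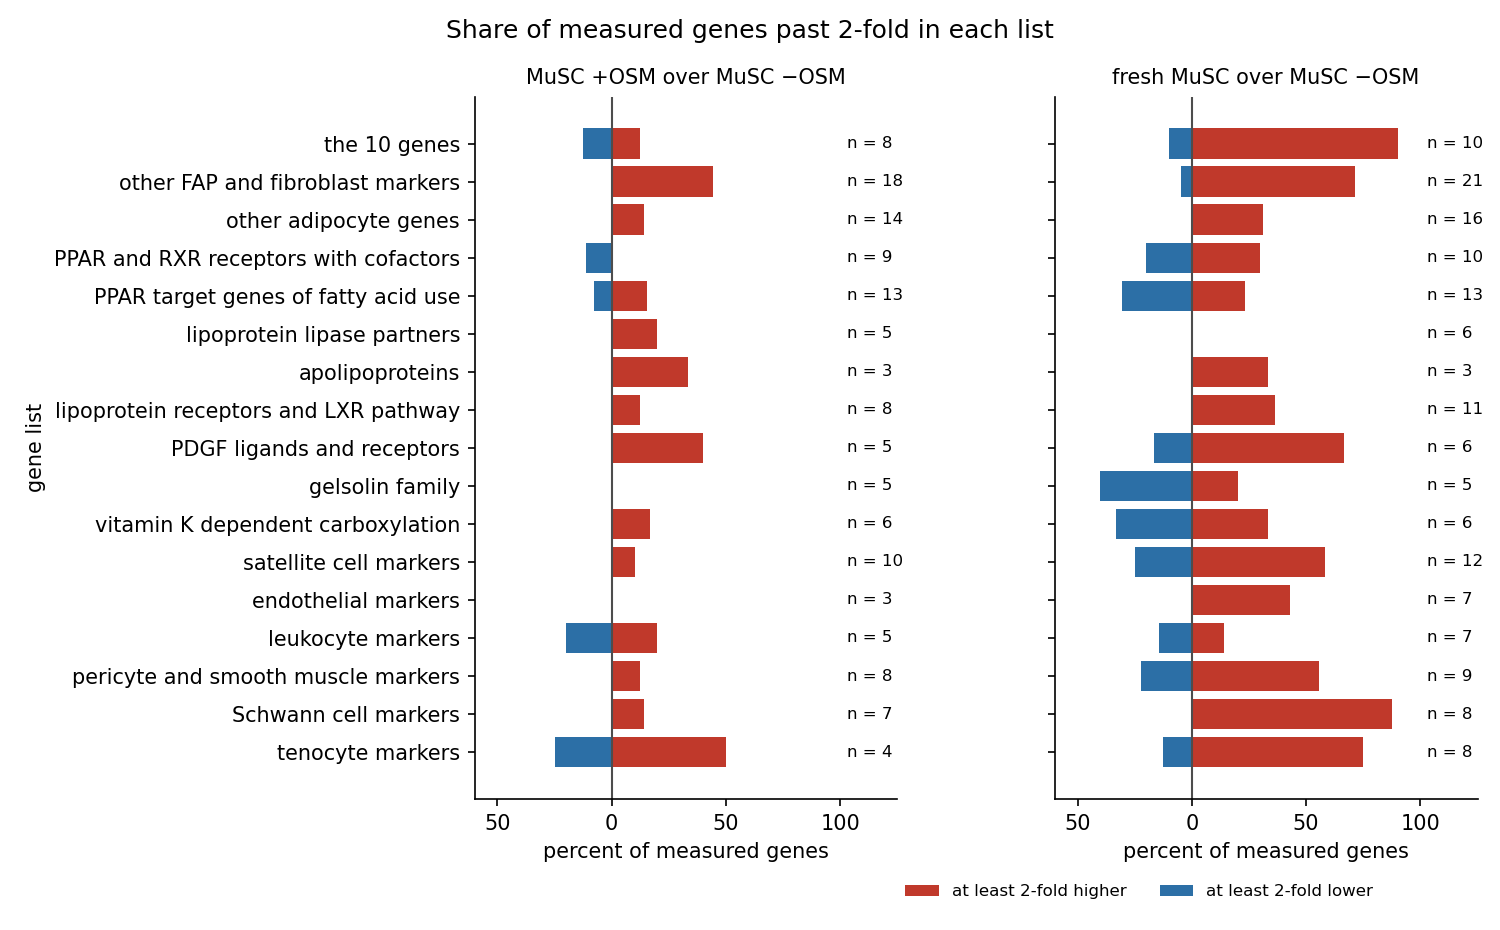
Percent of the measured genes of each list at least 2-fold higher (red, to the right) and at least 2-fold lower (blue, to the left), for MuSC +OSM over MuSC −OSM and fresh MuSC over MuSC −OSM, with the number of measured genes at the right. In fresh MuSC the 10 genes (9 of 10) and Schwann cell markers (7 of 8) have the longest red bars, and with OSM tenocyte markers (2 of 4) and FAP markers (8 of 18) do.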

How the data were processed

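RNA of FACS-sorted mouse MuSC was amplified with 3′ IVT Express reagents and hybridized to 3 MOE_430_2 arrays, with 1 array per condition. The authors processed the scans with MAS5 (version not given in the sources used here) and deposited signal intensity on a linear scale, in whole numbers and scaled so that the mean, with 2% trimmed at each end, was 198 to 199 on each array. The number of arrays limits the precision.

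Columns were matched to conditions by sample. Of 45037 probe sets, after 64 controls were left out, 34945 name 1 gene, 932 several and 9160 none in the annotation. The probe set with the highest signal on average stood for its gene, and 34741 of the probe sets naming 1 gene matched the mouse RefSeq table by gene identifier. Ratios, counts past 2-fold and medians used pandas 2.3.3 and numpy 2.4.6 under Python 3.11.15, and the steps were tested on simulated data. Figures were drawn with matplotlib 3.10.9.

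Tried in turn were another floor, fold threshold, choice of probe set and scaling (common median or quantile). The genes and lists were chosen with earlier results of these data known. Named were the 10 genes, from each list up to 4 genes of largest ratio past 2-fold, taken in each comparison with MuSC −OSM, and defining markers of each cell type. Capg, Vldlr, Gpihbp1, Ppargc1a, Lep, Retn, Cidec, Plin4, Serpinf1, Itga7, Myod1, Des, Acta2, Abcc9, Laptm5 and Cd68 were named after their values were seen.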

Additional observations from a re-analysis of the deposited data

How the results depend on the processing

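No paired analysis was possible because each condition has 1 array, and no replicate could be left out. A value counted as moved where it changed by over 1.5-fold. Scaling the arrays to a common median shifted the median log2 ratio of all genes by -0.50 in fresh MuSC over MuSC −OSM, by 0.15 in MuSC +OSM over MuSC −OSM and by 0.70 in MuSC +OSM over fresh MuSC, and quantile normalization by -0.23, -0.02 and 0.21. Relative to all genes, the median of the list in fresh MuSC over MuSC −OSM was 2.96 as reported, 2.90 after median scaling and 3.14 after quantile normalization. No log2 ratio of a listed gene past 2-fold changed sign under quantile normalization. The same held over the mean of all probe sets and, where measured, for the probe set of second highest mean signal. The dim Gsn probe set did reverse, with a log2 ratio of -0.79 for fresh against −OSM cells and 0.49 for +OSM against fresh cells. Dpt, Mgp, Apoe and Pparg have 1 probe set each, so the choice of probe set could not change their sign. Another floor cannot reverse a sign, and median scaling moved ratios by less than 2-fold, so neither could show such a change. The 59 other genes named by the rule above and past 2-fold in fresh MuSC over MuSC −OSM kept their sign after quantile normalization. So did the 25 with OSM, and under median scaling no sign of either could change. Of these genes, 8 and 1 fell within 2-fold after median scaling, and 5 and 4 after quantile normalization.

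Between the cultures, 2 listed genes were at least 2-fold higher with OSM after median scaling, where Apod reached a log2 ratio of 1.09, 3 with the floor at 20, where Pdgfra reached 1.10 and Apoe 1.03, and 2 at a threshold of 1.5-fold. With the probe set of second highest mean signal, which 3 measured genes have, 0 were higher and 0 lower. Pparg was the gene lost from the lower side with the floor at 80 or 183, each leaving 0. In fresh MuSC over MuSC −OSM, 0 were lower at these floors. With the second probe set 5 of 5 were higher and 0 lower, with a median of 2.46. Of these 5, the probe sets of Apod, Fabp4 and Cd36 passed the floor through the fresh array alone, so their direction was fixed. Over the mean of all probe sets the median was 1.88. Pdgfra and Cd36 were within 2-fold at the floor of 80 and over the mean of all probe sets. In MuSC +OSM over fresh MuSC, 6 genes in place of 8 were lower after median scaling, where Lpl (-0.62) and Pdgfra (-0.98) were within 2-fold and Mgp stood at 0.06. The median was -1.76 after median scaling and -1.40 over the mean of all probe sets, and 5 of 5 were lower with the second probe set. For Fabp4 and Cd36 that direction was again fixed by the fresh array, and for Apod MuSC +OSM lay just above the floor. The order of fresh MuSC, MuSC +OSM and MuSC −OSM, whose alternatives were chosen after the data were seen, held for 4 genes at the floor of 183 and for 3 of 5 with the second probe set. The other 64 results of this kind stayed within these limits. Signals near the floor limit Pdgfra, Apoe, Pparg, Fabp4 and Cd36.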
